A study of Mus musculus with 40 samples.

Results

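The cytosolic ribosomal protein genes were followed across 40 mouse retinas. Members were chosen by symbol alone: every row whose symbol is Rpl or Rps with a number and at most 1 further letter, the 3 stalk proteins Rplp0, Rplp1 and Rplp2, and Rpsa. This gave 82 members of 42037 rows: 43 proteins of the large (60S) subunit, 30 of the small (40S) subunit, the 3 stalk proteins and 6 paralogues (Rpl3l, Rpl10l, Rpl32l, Rpl39l, Rps4l and Rps27l), which are diverged copies of a core gene. Of these, 80 of 82 passed the filter on low counts, among 23495 rows tested. The 2 that did not were Rpl10l (mean 1.58 counts per library) and Rpl39l (mean 1.98 counts), so all 76 core members were tested. Some ribosomal protein genes have symbols that the rule does not match (Fau, Rps3a1, Rack1) and are described with the related lists.

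RNA came from single whole retinas of C57BL/6J mice at postnatal day 17 (P17) or 19 (P19), with 4 retinas in each of 10 groups. Control mice (nOIR) did not go through oxygen-induced retinopathy (OIR). OIR pups breathed 75% oxygen from P7 to P12, a protocol that closes central retinal vessels and is followed in room air by abnormal vessel growth. Eyes of OIR mice received 1 µl at P14 of control IgG (0.4 µg/µl), of the anti-VEGFA antibody B20.4.1 (0.2 µg/µl), of the anti-ANG2 antibody LC10 (0.2 µg/µl) or of a bispecific antibody to VEGFA and ANG2 (0.4 µg/µl). VEGFA drives vessel growth, and ANG2 (angiopoietin 2) is a ligand that destabilises vessels. The labels do not say whether control eyes were injected, nor which retinas came from 1 mouse or litter. Oxygen, injection and IgG thus cannot be told apart in the OIR comparison. With mouse and litter unknown, p-values measure the spread between these retinas, estimated over all 10 groups together. In whole tissue, a change in the share of a cell type and a change in RNA per cell cannot be told apart.

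Each ribosome holds 1 copy of nearly every core protein, and cells make these proteins in matched amounts. Their mRNAs are short and abundant and begin with a C followed by a run of pyrimidines, the 5′ terminal oligopyrimidine (TOP) tract, through which mTOR and LARP1 control their translation as a group. In the retina, photoreceptors renew their outer segments daily and make protein at a high rate. Ribosomal protein mRNA levels say nothing by themselves about translation rate, which was not measured.

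Promoter sequences were available from RefSeq (GRCm38.p6) for 61 of 82 members, with 73 annotated starts. Windows of 30 bases around the start (15 before and 15 after, gene strand) were searched on the gene strand for 3 pyrimidine strings, each of which contains the one before it. The shortest, CTTTCC, was found in 10 of 61 members (16.4%), against 1.67% of 27025 genes. The second string, with 1 more base at its 5′ end (TCTTTCC), was found in 4 members (6.56% against 0.37%). The longest of them, CTCTTTCC, was found in 3 members (4.92% against 0.133%). In the 300-base windows (250 before to 50 after the start, both strands) CCGGAAG, the core of an ETS-type element, was found in 25 members (41.0% against 9.93%), and TATAAA, the TATA box string, in 7 (11.5% against 15.7%). These matches are descriptions, and no match says only that the letters are not in the window. The windows below show the pyrimidine strings in capitals: the 3 members with the longest string, then Rpl38 and Rpl35, whose levels are described below, and the paralogue Rps27l, which held none of the 3 strings and lies in lower case throughout.
Rpl18, chr7:45718056-45718085, plus strand: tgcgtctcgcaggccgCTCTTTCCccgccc
Rpl28, chr7:4792950-4792979, plus strand: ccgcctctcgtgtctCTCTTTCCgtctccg
Rpl35a, chr16:33056467-33056496, plus strand: gcggggcttgccttcCTCTTTCCgccatct
Rpl38, chr11:114668565-114668594, plus strand: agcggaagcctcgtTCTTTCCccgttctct
Rpl35, chr2:39005117-39005146, minus strand: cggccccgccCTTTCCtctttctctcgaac
Rps27l, chr9:66946071-66946100, plus strand: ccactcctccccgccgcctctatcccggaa

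Libraries held 9160000 to 25800000 expected counts, with a mean of 17100000 and an SD of 3520000. The retinal label held in all groups: none of the 10 rod genes was at 0, and they summed to 41100 to 77600 CPM (counts-per-million values scaled to library size) in every library. Lens genes (11 crystallins and lens fibre proteins) stood out in 4 libraries at P17, with a mean log2 CPM of 4.26 to 7.05, and the lowest total belonged to bispecific retina 3 at P19. By Y-linked genes the sexes were not balanced: the 4 IgG retinas at P19 held 181 to 218 CPM of them, whereas these genes were at 0 in the 4 bispecific retinas at P19 and the 4 anti-ANG2 retinas at P17. Control retina 3 at P17 stood apart for the members themselves, as described next.

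Together the members took between 0.7779% and 2.196% of a library's counts. In control retinas the summed share was 1.03% ± 0.182 (SD, n = 4) at P17 and 0.95% ± 0.0501 at P19. In OIR retinas with IgG it was 1.21% ± 0.139 at P17 and 1.39% ± 0.218 at P19. At P19 the 4 IgG libraries (1.097% to 1.611%) lay above the 4 control libraries (0.8915% to 1.014%), while at P17 the ranges overlapped (1.064% to 1.367% against 0.7779% to 1.176%). The highest group was anti-ANG2 at P19, at 1.85% ± 0.3 (1.464% to 2.196%). Anti-VEGFA (1.46% ± 0.247) and the bispecific antibody (1.35% ± 0.161) at P19 lay near IgG, and the antibody groups at P17 ran from 1.22% ± 0.206 to 1.32% ± 0.144. Each of these groups overlapped its IgG group.

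**Figure D1:**
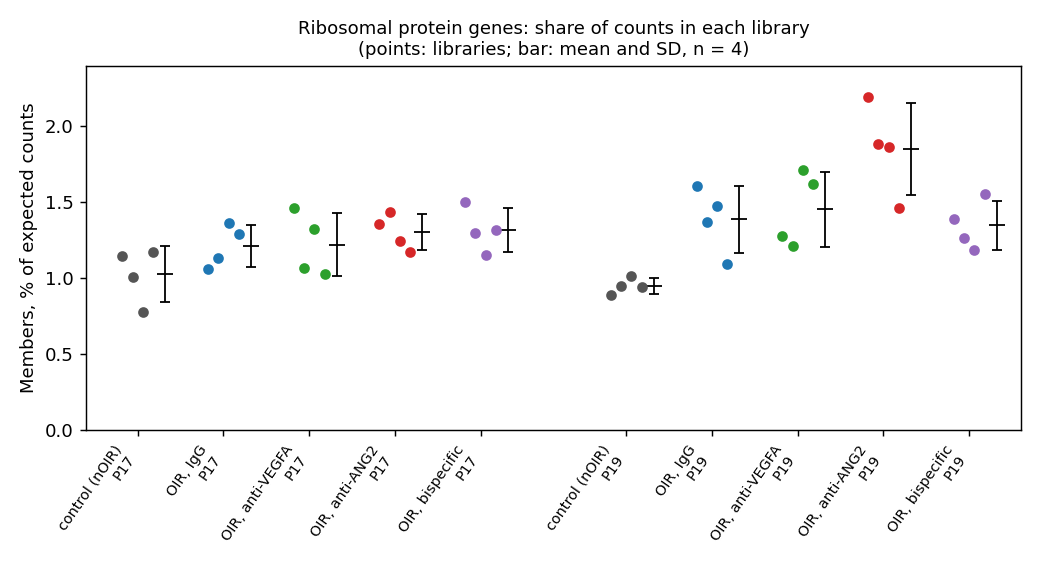
Share of expected counts in the 82 members (vertical axis, %) in each library, by group at P17 (left) and P19 (right); points are retinas and the bars give the mean and SD (n = 4). Control libraries at P19 lie between 0.8915% and 1.014% and below all IgG libraries at P19, and the highest library, at 2.196%, is an anti-ANG2 retina at P19.

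The members moved as a block between single retinas. Anti-ANG2 retina 1 at P19 had the highest CPM of all 40 libraries for 76 of 76 core members, and control retina 3 at P17 the lowest for 75 of 76. Within the IgG group at P19, retina 1 was highest for 75 of 76 core members and retina 4 lowest for 75 of 76. Within the anti-ANG2 group at P19, retina 1 was highest and retina 4 lowest for 76 of 76. These CPM are divided by 1 scaling factor per library (TMM), which shifts all genes of a library together. The factors ran from 0.743 to 0.986 with anti-ANG2 at P19 and from 1.06 to 1.28 in controls at P17. The summed share, which does not use them, also had its extremes in these groups (2.196% and 0.7779%). How much of the block movement the factors carry was not tested. The spread over libraries (SD of log2 CPM, n = 40) ran from 0.29 for Rpl3, a catalytic-centre protein of the 60S subunit, to 0.61 for Rpl41, the smallest ribosomal protein, with a median of 0.47. The summed CPM of the 40S members was 0.498 to 0.574 times that of the 60S and stalk members across all libraries, so the balance between subunits moved little beside the total. That ratio was 0.521 ± 0.006 in controls, 0.530 ± 0.009 with IgG and 0.560 ± 0.012 with anti-ANG2 at P19 (SD, n = 4). CPM are not scaled by length, so this is a ratio of counts and not of molecules.

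**Figure D2:**
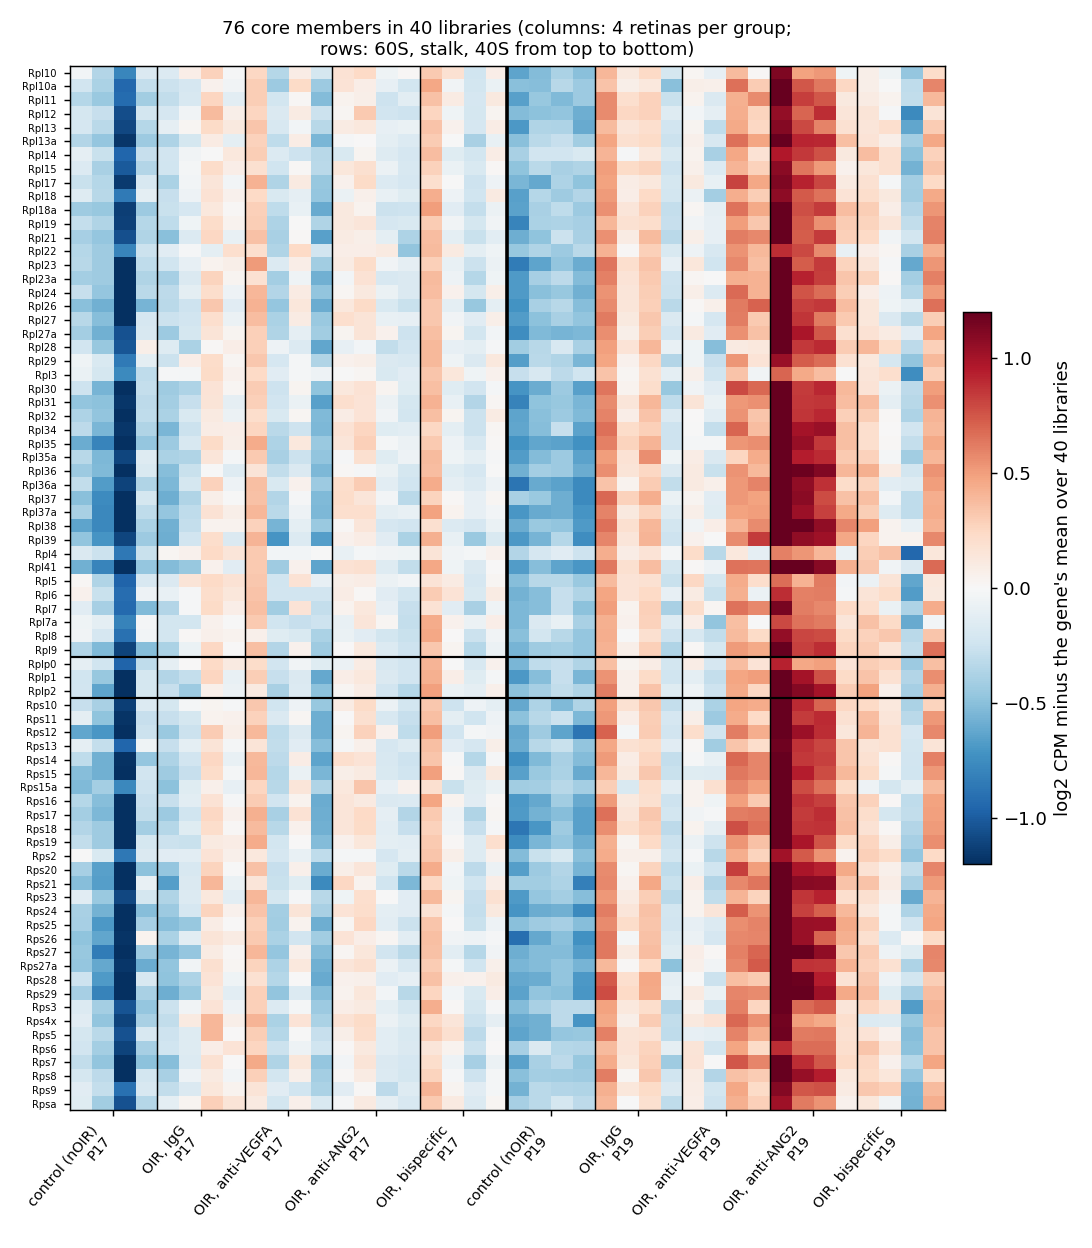
Level of the 76 core members (rows: 60S, stalk, 40S) in the 40 libraries (columns, 4 retinas per group, P17 left of the thick line); colour gives log2 CPM minus the gene's mean over all libraries. Whole columns share a colour: control retina 3 at P17 is lowest for 75 of 76 members and anti-ANG2 retina 1 at P19 highest for 76 of 76.

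This order of retinas was shared with other gene lists. In 10 of 10 groups the library with the lowest mean log2 CPM of the ribosomal proteins also had the lowest mean of 82 nuclear-encoded respiratory chain subunits, and in 9 of 10 groups the highest was the same; the full order of the 4 retinas was the same in 9 of 10. For the 78 mitochondrial ribosomal proteins the highest library was the same in 9 of 10 groups and the full order in 6 of 10. All these means use the same TMM factor per library, which moves the lists together. What sets this order was not tested.

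On the TPM scale (transcripts-per-million, scaled by transcript length), Rpl41 was the most abundant member at 2350 ± 543 (SD, n = 40), followed by Rps29 at 1730 ± 357 and Rps14 at 1700 ± 292; the SDs of neighbouring members overlap. Rps29 and Rps14 are 40S proteins. The core members thus spanned a wide range, with Rps15a lowest among them at 17.7 ± 2.82 TPM and Rps20 at 38.3 ± 8.3 TPM. TPM divide counts by the length assigned to a gene, so this is not the order of counts. With IgG at P19, Rps15a had 70.6 CPM and 17.3 TPM, while Rps28 had 27.2 CPM and 321 TPM. Levels of single members also depend on how reads were divided among copies. Rows with a copy suffix held the same values as Rps10, Rps18, Rps28 and Rps4l in 40 of 40 libraries, so their reads appear split between 2 rows, and a second Rpl10a row held a mean of 1840 counts beside the member's 2180. Differences between groups for these members were taken on the row as deposited, and adding the copy rows changed no count of called members in 15 of 15 comparisons.

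Paralogues were mostly near the detection limit. Rpl3l, the muscle form of Rpl3, had 0.44 ± 0.581 TPM and at most 29 counts in a library. Rpl10l, a testis-expressed copy of Rpl10, had 0.172 ± 0.357 TPM and was at 0 in 25 of 40 libraries. Rpl39l, also known from testis, had 0.363 ± 0.512 TPM and was at 0 in 21 of 40. Rpl32l had 4.67 ± 3.38 TPM. Rps27l (262 ± 46.9 TPM), a p53-responsive copy of Rps27, and Rps4l (79.1 ± 16.9 TPM) were the 2 paralogues with levels near those of core members.

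The first comparison set OIR retinas with IgG, and so without a targeting antibody, against control retinas. Oxygen, injection and IgG cannot be told apart in it. At P19, 15 of 80 members rose and 0 fell, when 0.919% of all rows were called and 0.821% rose at the same threshold (adjusted p under 0.05, edgeR's quasi-likelihood test with Benjamini-Hochberg adjustment over 23495 rows). They were 9 of 43 60S proteins, 5 of 30 40S proteins, 0 of 3 stalk proteins and 1 of the 4 paralogues tested. The direction was the same across the core: 79 of 80 members, among them 76 of 76 core members, had a log2 change above 0 (45.6% of all rows), the core from 0.36 to 0.96, and 65 of 80 members had all 4 IgG libraries above all 4 control libraries, against 6.64% of all rows. The median log2 change of the 80 members was 0.67 (1.59-fold), beside −0.052 for all rows tested. By unadjusted p under 0.05, 76 of 80 were higher, against 7.68% of all rows. Members moved as a block between retinas, so such counts, here and in the comparisons below, are not of independent observations.

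Rps27l had the smallest p. Its CPM were 19.3, 24.7, 25.4 and 26.8 in the control retinas and 66.5, 46.1, 48.0 and 37.2 with IgG. Every IgG retina lay above every control retina, with retina 1 the highest. The change was 2.05-fold (log2 1.04 ± 0.21 SE, adjusted p = 0.005, edgeR), and it was also the member called under the largest number of settings. Rps27l is induced by p53 and acts back on it through MDM2. Of 10 p53 target genes listed, 1 rose at P19, Cdkn1a, the cell-cycle inhibitor p21, from 6.18 ± 1.31 to 13.2 ± 1.97 CPM (2.14-fold, adjusted p = 0.03, edgeR), and the list's median log2 change was 0.26.

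Rpl35, a 60S protein near the exit of the nascent chain, had 59.9, 63.9, 62.8 and 59.3 CPM in control retinas. With IgG it had 149, 118, 130 and 82.7 CPM. The groups did not overlap, and the controls were close together (61.5 ± 2.23, SD, n = 4). It rose 1.95-fold (log2 0.96 ± 0.22 SE, adjusted p = 0.017, edgeR).

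Rps29, a small zinc-binding 40S protein, had 76.6 to 90 CPM in control retinas and 214, 147, 171 and 117 with IgG. It rose 1.94-fold (log2 0.95 ± 0.22 SE, adjusted p = 0.02). Rps24, a 40S protein mutated in Diamond-Blackfan anaemia, went from 69.5 ± 4.32 to 131 ± 31.4 CPM (1.88-fold, adjusted p = 0.017). Rpl23, one of the 60S proteins that bind MDM2, went from 65.4 ± 6.59 to 124 ± 26.8 CPM (1.9-fold, adjusted p = 0.019). In each of these the IgG group lay above the control group, and IgG retina 1 was the highest. The other 10 called members were Rpl35a, Rpl37a, Rps26, Rps28, Rpl38, Rpl37, Rps18, Rpl27a, Rpl41 and Rpl12, with changes of 1.71-fold to 1.93-fold and adjusted p of 0.022 to 0.044 (edgeR).

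Other core members did not pass the threshold, with changes of up to 1.8-fold among those named here. Rplp0, the scaffold of the stalk that recruits elongation factors, had 401 to 482 CPM in controls and 502 to 751 with IgG (1.36-fold, log2 0.45 ± 0.17 SE, adjusted p = 0.22). Its groups did not overlap either. The acidic stalk proteins Rplp1 (80.6 ± 9.69 against 129 ± 28.9 CPM, 1.59-fold) and Rplp2 (48.2 ± 2.71 against 74.7 ± 17.3 CPM, 1.55-fold) both had an adjusted p of 0.15. Rpsa, the 40S protein that is also known as the laminin receptor, had 239 ± 12.8 against 315 ± 63.6 CPM (1.32-fold, adjusted p = 0.34). For Rps6, the 40S phosphorylation target of S6 kinase, the change was 1.41-fold (adjusted p = 0.16), and for Rpl3 1.29-fold (adjusted p = 0.32). Rpl10, which is placed late in 60S maturation, came close to the threshold (109 ± 7.66 against 172 ± 29.5 CPM, 1.58-fold, adjusted p = 0.065). Rps27, the core counterpart of Rps27l, had 40.3 ± 1.87 against 72.4 ± 16.7 CPM (1.8-fold, adjusted p = 0.083). For Rps27a the change was 1.51-fold and for Rpl22, whose paralogue Rpl22l1 lies outside the rule, 1.46-fold (adjusted p = 0.16 and 0.17). Just inside the threshold lay Rpl12 (adjusted p = 0.044) and just outside it Rpl36a (adjusted p = 0.052). The smallest core change was that of Rpl14, at log2 0.36 ± 0.19 SE (adjusted p = 0.43). Medians by role were 0.66 for 60S, 0.7 for 40S and 0.63 for stalk proteins (log2), and 0.22 for the 4 paralogues tested, of which Rps4l had 1.11-fold, Rpl3l 1.22-fold and Rpl32l 0.97-fold.

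The number of calls at P19 rested on single libraries and on covariates. Without IgG retina 1 it was 0 of 80, without IgG retina 4 it was 44, and without one of the other 6 retinas between 1 and 7. Calls over all rows moved with it: 73, 410 and 66 to 115, against 216 with all retinas. Over these 8 fits the members' median log2 change lay between 0.55 and 0.8. Y-linked genes were high in 4 of 4 IgG retinas and 2 of 4 controls, and with their level as a covariate 1 member, Rps27l, was called, beside 110 of all rows.

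**Figure D3:**
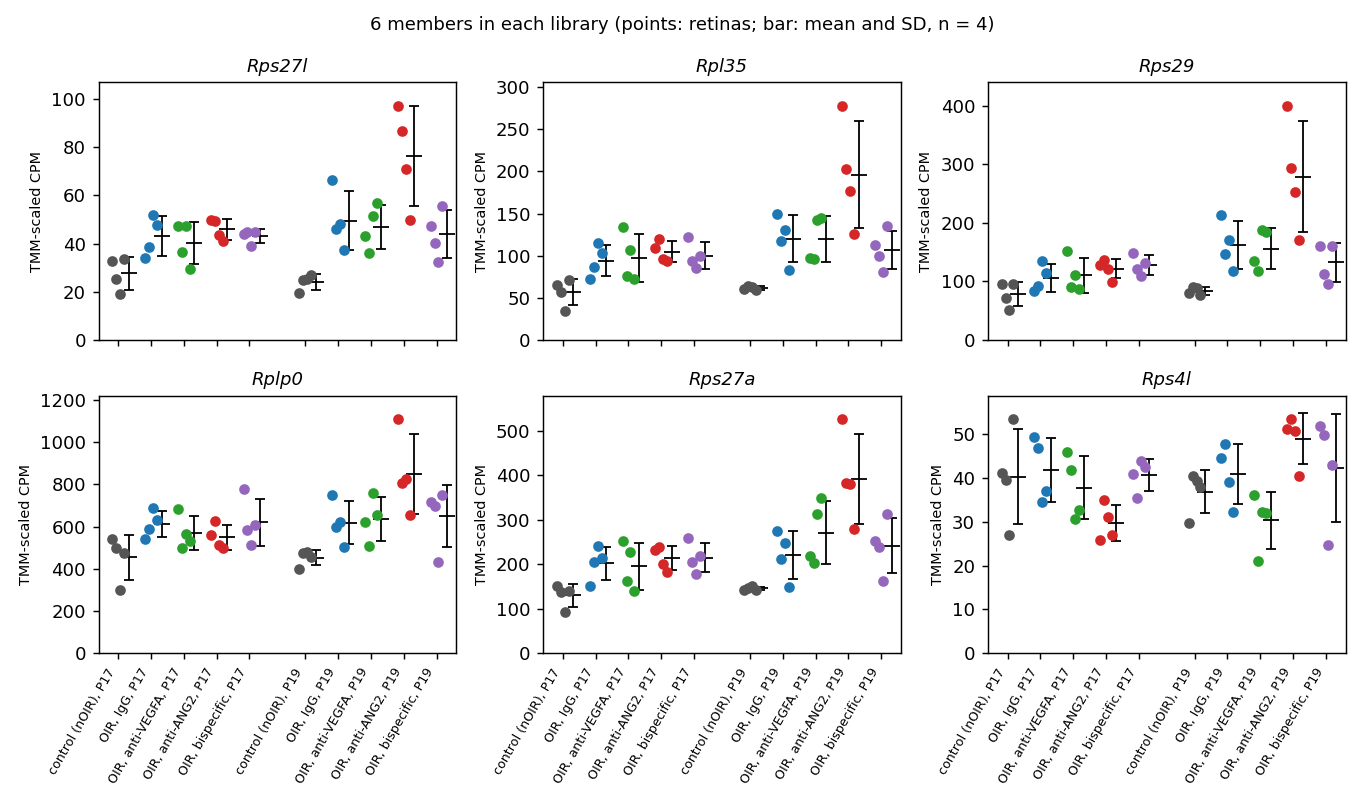
CPM (vertical axes, from 0, scaled per gene) of 6 members in each retina, by group; points are retinas and the bars give the mean and SD (n = 4). Rps27l, Rpl35 and Rps29 with IgG lie above the controls at P19, anti-ANG2 retina 1 at P19 is the highest point in 5 of 6 genes, and Rps4l shows no such order.

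At P17 the same comparison called 0 of 80 members (2.36% of all rows were called and 2.11% rose), and DESeq2 called 1, beside 1093 of all rows (6.06% of those it tested). The changes lay on one side: 78 of 80 members were above 0, against 46.4% of all rows. The 76 core members ran from 0.12 to 0.73, with a median of 0.44 (1.36-fold) over all 80 members beside −0.048 for all rows. As members moved as a block between retinas, this direction is not that of 80 independent observations. By unadjusted p under 0.05, 49 of 80 were higher, against 9.73% of all rows, and 14 of 80 did not overlap, against 6.82%. Rpl35 had 64.9, 56.8, 34.8 and 71.2 CPM in controls and 72.8, 86.2, 115 and 103 with IgG. Its groups did not overlap, and its change of 1.66-fold (log2 0.73 ± 0.22 SE) missed the threshold at adjusted p = 0.06 (edgeR). Rps27l had 1.56-fold (adjusted p = 0.083) and Rps27a, made as a fusion with ubiquitin, 1.55-fold (202 ± 37.4 against 130 ± 25.3 CPM, adjusted p = 0.091). Among the p53 targets, Cdkn1a (2.67-fold, adjusted p = 0.0012) and Phlda3 (2.13-fold, adjusted p = 0.016) rose, 2 of 10. Without control retina 3, the low library, the median was 0.27 in place of 0.44. The median also depended on library scaling. TMM factors were 1.14 ± 0.104 in controls and 0.977 ± 0.0313 with IgG (SD, n = 4). With RLE factors the median was 0.39, and on the TPM scale, without TMM factors, 0.1. The summed share, also without them, was 1.03% in controls and 1.21% with IgG.

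The difference between IgG and control retinas was not shown to vary with age. In the interaction of OIR and age, 0 of 80 members were called, where 0.00426% of all rows were, with a median difference of 0.28 (log2, P19 minus P17). By unadjusted p under 0.05, 0 of 80 members passed, against 5.68% of all rows. The smallest p was that of Rpl35a (1.44-fold, adjusted p = 0.92, edgeR). Between P17 and P19, 0 of 80 members were called in controls, with a median of 0.01, where 0.0979% of all rows were called. Rps6 had the smallest p there (119 ± 28.8 to 136 ± 9.4 CPM, adjusted p = 1). In IgG retinas 0 were called, where 0.00851% of all rows were, with a median of 0.27 and 8 of 80 higher by unadjusted p (2% of all rows); Rps29 went from 106 ± 23.3 to 162 ± 41 CPM (1.53-fold, adjusted p = 1).

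**Figure D4:**
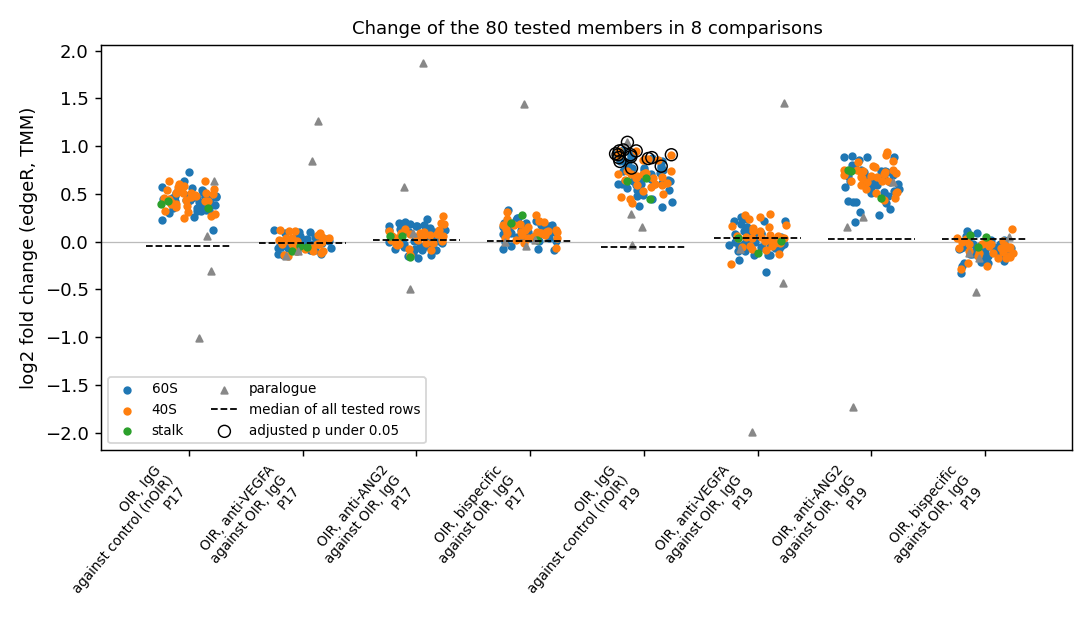
Log2 fold change of the 80 tested members (vertical axis) in the 8 primary comparisons, coloured by role; black rings mark adjusted p under 0.05 and dashed lines the median of all 23495 rows. The core members lie above the dashed line in the OIR comparison at both ages and in anti-ANG2 against IgG at P19; the 3 antibody comparisons at P17 are centred near 0.

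Each antibody was compared with IgG at the same age to ask what the treatment changed within OIR. All antibody comparisons at an age use the same 4 IgG libraries. At P17 0 of 80 members were called with any of the 3 antibodies, as were 0 of all rows (0%). Median log2 changes were −0.02 with anti-VEGFA, 0.06 with anti-ANG2 and 0.1 with the bispecific antibody, and the core members lay between −0.17 and 0.33. With anti-VEGFA the core member with the smallest p was Rpsa (285 ± 32.4 against 316 ± 37.6 CPM, adjusted p = 1), and with the bispecific antibody Rpl41 (267 ± 54.5 against 213 ± 40.1 CPM, adjusted p = 1), followed by Rplp2 (1.22-fold) and Rps28 (1.24-fold). Rps15a, with anti-ANG2, had 73 ± 9.18 against 60.6 ± 9.32 CPM (adjusted p = 0.76). With anti-ANG2 the paralogue Rps4l had 25.8, 34.9, 31.1 and 26.9 CPM against 49.2, 46.9, 34.4 and 36.9 with IgG (0.709-fold, adjusted p = 0.56, edgeR), with 1 retina inside the IgG range. The low-count paralogues Rpl3l and Rpl32l had the widest values (log2 1.87 ± 1.67 SE for Rpl3l with anti-ANG2), with an SE close to the change or larger.

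At P19, anti-ANG2 retinas had higher levels of nearly all members than IgG retinas, but 0 of 80 passed the threshold, where 0.0979% of all rows were called and 0.017% rose. The core changes ran from 0.21 to 0.94 (log2), and 79 of 80 members were above 0 (52.2% of all rows), with a median of 0.64 (1.56-fold) over 80 members beside 0.027 for all rows. By unadjusted p under 0.05, 73 of 80 were higher, against 6.64% of all rows, and DESeq2 called 57, beside 552 of all rows (5.86% of those it tested). Separation between the groups was poor: 1 of 80 members did not overlap, against 1.97% of all rows. That member was Rps27a, with 275, 212, 247 and 149 CPM with IgG and 526, 382, 379 and 279 with anti-ANG2 (1.77-fold, log2 0.83 ± 0.21 SE, adjusted p = 0.097). Rpl38, a 60S protein that is known for its role in translating Hox mRNAs, had 118 ± 36.5 against 63.4 ± 15.8 CPM (1.86-fold, adjusted p = 0.077). Rpl36 had 179 ± 54.2 against 96.3 ± 19.9 CPM (1.86-fold, adjusted p = 0.082). In both, the lowest anti-ANG2 retina, number 4, lay within the IgG range.

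Retina 4 and mitochondrial transcripts moved with this result. Without anti-ANG2 retina 4 the count of called members was 50 in place of 0, and that over all rows 439 in place of 23; the members' median was 0.81. The 2 mitochondrial genome rows took 1.28% ± 0.394 of counts with anti-ANG2 and 0.616% ± 0.137 with IgG at P19 (10100 to 18600 against 4610 to 7530 CPM). With that share as a covariate the members' median was 0.03 with 0 called, so members and mitochondrial share could not be told apart in this comparison. Rod genes summed to 60700 to 72800 CPM with anti-ANG2 and 47400 to 61100 with IgG, without TMM factors. None of the 10 was called, their median change was 0.49 (log2), and their part in the result was not tested. Sex was not balanced in this comparison either: Y-linked genes summed to 181 to 218 CPM with IgG and 0.294 to 128 with anti-ANG2. The fit with their level as a covariate is given with the alternatives below. Whether the anti-ANG2 effect differs between P17 and P19 was not tested.

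With anti-VEGFA and with the bispecific antibody at P19 the members lay near IgG levels: 0 of 80 were called with either, with medians of 0.02 and −0.08. Y-linked genes summed to 181 to 218 CPM in the IgG retinas and were at 0 in all bispecific retinas. Sex and the bispecific antibody thus cannot be told apart in that comparison. With anti-VEGFA 0% of all rows were called, and with the bispecific antibody 0.0468%. Core changes ran from −0.32 to 0.29 with anti-VEGFA and from −0.33 to 0.13 with the bispecific antibody. Rps4l had 30.3 ± 6.46 CPM with anti-VEGFA against 40.8 ± 6.81 with IgG (0.744-fold, adjusted p = 0.43), and Rpl28 56.6 ± 10.7 against 70.6 ± 12.3 CPM (0.803-fold, adjusted p = 0.56). The paralogue Rpl32l had 2.12 ± 1.16 CPM with anti-VEGFA and 0.767 ± 0.62 with IgG (adjusted p = 0.51), values close to the lower end of detection. Rpl12, which lies beside the stalk, had 58.6 ± 15.3 CPM with the bispecific antibody against 73.6 ± 14.8 (0.797-fold, adjusted p = 0.72), followed by Rps29 (0.816-fold) and Rpl27 (0.841-fold). Mitochondrial share was 1.14% ± 0.42 with anti-VEGFA, and with it as a covariate the anti-VEGFA median was −0.46 with 0 called.

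The bispecific antibody was also compared with each single antibody, given at a lower concentration (0.2 against 0.4 µg/µl). Against anti-ANG2 at P19, 1 of 80 members was above 0, against 54.1% of all rows, with a median log2 change of −0.74 (0.6-fold) beside 0.05 for all rows, but 0 were called, as were 0% of all rows. By unadjusted p under 0.05, 76 of 80 were lower, against 6.97% of all rows, and DESeq2 called 50, beside 414 of all rows (3.63% of those it tested). Rps29 had 161, 113, 94.7 and 161 CPM with the bispecific antibody and 400, 293, 252 and 171 with anti-ANG2. These values did not overlap, and the fold was 0.474 (log2 −1.08 ± 0.22 SE, adjusted p = 0.062, edgeR). In all, 6 of 80 members did not overlap, against 1.25% of all rows. Without anti-ANG2 retina 4, 72 members and 709 of all rows were called. All 4 Y-linked genes were at 0 in the bispecific retinas and summed to 0.294 to 128 CPM with anti-ANG2; with them as a covariate the median was −0.54. Mitochondrial share was 0.756% ± 0.204 against 1.28% ± 0.394, and with it as a covariate the median was −0.2.

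In the other bispecific comparisons 0 of 80 members were called. Against anti-VEGFA the median was 0.12 at P17 (0% of all rows called) and −0.11 at P19 (0.0553%), and against anti-ANG2 at P17 it was 0.06 (0%). The members with the smallest p were Rplp2, 1 of the 2 small acidic stalk proteins, at P17 (68.2 ± 13.8 against 54.1 ± 10.4 CPM, adjusted p = 1), and Rps4l in the other 2 comparisons. Rps4l had 1.37-fold higher CPM with the bispecific antibody than with anti-ANG2 at P17 (40.6 ± 3.68 against 29.7 ± 4.16, adjusted p = 1), without overlap, and 1.4-fold higher than with anti-VEGFA at P19 (42.3 ± 12.3 against 30.3 ± 6.46, adjusted p = 0.42).

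Other genes of the ribosome and of translation were taken from lists chosen beside the members. All 7 ribosomal protein genes outside the symbol rule (among them Fau, made as a fusion with a ubiquitin-like protein) had log2 changes above 0 in OIR at P17, in OIR at P19 and in anti-ANG2 at P19, with medians of 0.44, 0.58 and 0.5, and 0 were called. The 17 elongation factors and other TOP mRNAs had medians of 0.26, 0.32 and 0.39. In OIR at P17, 1 of them rose: Npm1, nucleophosmin, from 153 ± 38.2 to 241 ± 28.2 CPM (1.57-fold, adjusted p = 0.017). Of 35 ribosome biogenesis genes, 2 rose in OIR at P17, Npm1 and Nop58, a core protein of box C/D snoRNPs (42 ± 2.48 to 66.2 ± 6.69 CPM, 1.58-fold, adjusted p = 0.0057), and 0 at P19. The biogenesis medians were 0.17, 0.15 and 0.01, below those of the ribosomal proteins. The 17 snoRNA host genes had medians of 0.17, 0.66 and 0.45 with 0 called. The 24 genes that control ribosomal protein synthesis (mTOR, LARP1, 4E-BP, S6 kinase, MYC and integrated stress response genes) had medians of 0.03, −0.12 and −0.02, with 0 called.

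Lists of mitochondrial proteins had values between these. Of 78 mitochondrial ribosomal proteins, 1 rose in OIR at P17 (Mrps28, 1.63-fold, adjusted p = 0.045) and 1 at P19 (Mrpl52, 8.76 ± 0.317 to 19.6 ± 4.13 CPM, 2.23-fold, adjusted p = 0.0096), with medians of 0.25 and 0.34. Of 82 respiratory chain subunits tested, 0 rose at P17 and 3 at P19: Uqcr11 of complex III (1.83-fold, adjusted p = 0.041), Ndufa5 of complex I (1.77-fold, adjusted p = 0.043) and Cox6b1 of complex IV (1.76-fold, adjusted p = 0.049). Their median was 0.39 at P17, 0.59 at P19 and 0.56 in anti-ANG2 at P19, close to the ribosomal proteins in each; the difference between the 2 lists was not tested. Microglia and macrophage genes also moved with OIR: 9 of 11 rose at P17 and 9 of 11 at P19, with medians of 1.86 and 1.96. They summed to 81.4 to 114 CPM in controls and 275 to 340 with IgG at P19, with none at 0, and their part in the ribosomal protein change was not tested. Of 10 Mueller glia genes 2 rose at P17 (Rgr, 3.7-fold, and Vim, 1.9-fold) and 1 at P19 (Apoe, apolipoprotein E, 2.03-fold, adjusted p = 0.0087). Of 10 endothelial genes 1 rose at P17 and 2 at P19 (Emcn, 7.12-fold, adjusted p = 0.02, and Cldn5, 2.4-fold, adjusted p = 0.034). Rod genes had 0 of 10 called, with medians of 0.37 and 0. Pigment epithelium genes had medians of 1.01 at P17 (2 of 10 rose) and 0.08 at P19, and red blood cell genes 1.74 (4 of 5 rose) and 0.18. Lens genes had a median of 6.61 at P17 (1 of 11 rose) and 0.21 at P19, and leaving out the 4 libraries with lens RNA and the shallowest one left 13 of the 15 calls at P19.

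Transcript length went along with the change. The median annotated transcript length of the members was 704 bases (367.5 for Rpl38 to 3706 for Rps20), and 66 of 82 were under 1000 bases, against 19.6% of 19268 tested genes with a length (median 2056.25). In OIR at P19, other genes of 500 to 1000 bases had a median log2 change of 0.16, those of 1000 to 2000 bases 0.07, those of 2000 to 4000 bases −0.08 and those over 4000 bases −0.15. Members exceeded other genes of like length: 0.68 for the 50 members of 500 to 1000 bases and 0.6 for the 13 of 1000 to 2000 bases. The 15 members of up to 500 bases had 0.84, where other genes of that length had −0.06. Within the core, members of up to 500 bases had a median of 0.84 at P19 and those over 1000 bases 0.61; at P17 these were 0.43 and 0.44. The 5 core members with the smallest spread over libraries were Rpl3, Rpl4, Rpl5, Rplp0 and Rpl7a (SD 0.29 to 0.34), with lengths of 816 to 1538 bases. The 5 with the largest were Rps29, Rps21, Rpl39, Rps27 and Rpl41 (SD 0.58 to 0.61), with lengths of 390 to 612 bases. Between these ends some members went the other way, such as Rps20 (3706 bases, SD 0.54) and Rpl18 (543.5 bases, SD 0.39). A trend of spread with length was not tested.

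With a length trend removed in each library, the members' median was 0.34 in OIR at P17, 0.5 at P19 and 0.54 in anti-ANG2 at P19, in place of 0.44, 0.67 and 0.64, and 6 of the 15 calls at P19 were kept, with 134 calls over all rows in place of 216. On the TPM scale, where counts are scaled by transcript length within each library, the medians were 0.1, 0.39 and 0.23. The TPM fits used no TMM factors, so library scaling differs too and the lower medians cannot be put down to length alone. Medians of all rows, on log2(TPM + 1), were −0.147 in OIR at P19 and −0.186 in anti-ANG2 at P19. Relative to all rows the members were higher at P19 on both scales. Summed TPM of the members was 33400 ± 1360 in controls, 44500 ± 3930 with IgG and 53200 ± 4350 with anti-ANG2 at P19 (SD, n = 4), and 37100 ± 3760 and 40000 ± 2740 in controls and IgG at P17.

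**Figure D5:**
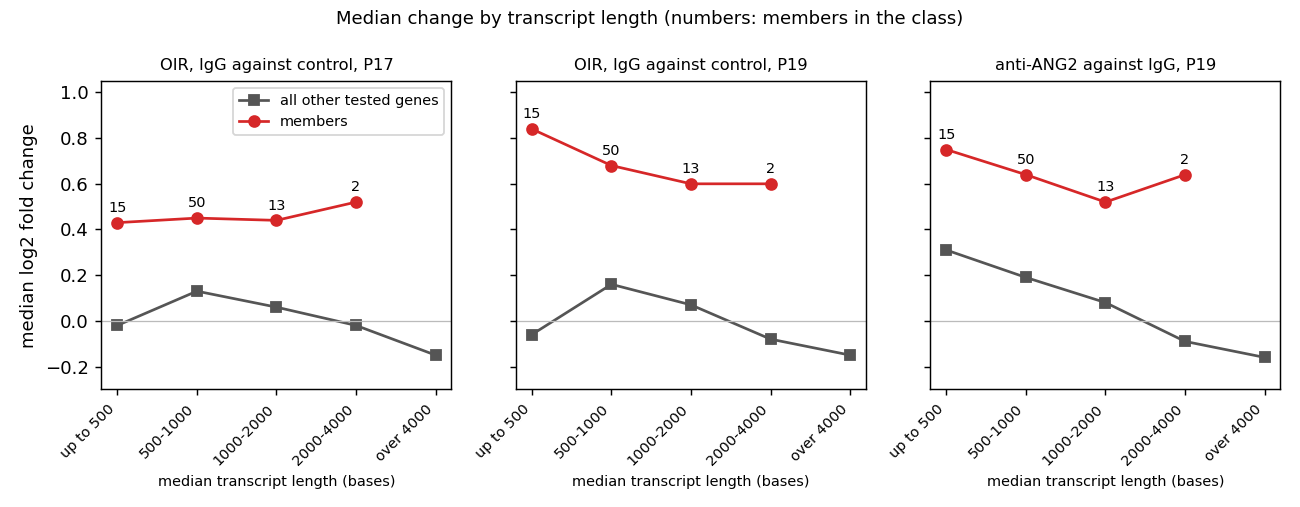
Median log2 fold change (vertical axis) of members (red circles, with their number) and all other tested genes with a known length (grey squares) by median transcript length (horizontal axis, bases), in OIR with IgG against control at P17 and P19 and in anti-ANG2 against IgG at P19. Members lie above other genes in every length class that holds them, for example 0.68 against 0.16 at 500 to 1000 bases in OIR at P19.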

How the data were processed

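RNA-seq of 40 single retinas was used, 10 groups of 4. The authors deposited RSEM expected counts and TPM for 42037 symbols. Per the submitters' processing notes, STAR 2.7.10a, RSEM 1.3.3 and GRCm38.p4 were used (annotation: not given in the sources used here). The SMART-Seq mRNA kit gave the cDNA and Nextera XT the libraries, per the labels' protocols; strand and molecular identifiers are not mentioned, so reads of a gene are not independent molecules. Expected counts were rounded to whole numbers for the count tests, since 15.7% of those above 0 had a fraction.

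Counts were scaled with TMM factors, filtered by group and fitted in 1 quasi-likelihood model (edgeR 4.0.16, robust) over all libraries, with 15 comparisons, of which 8 were primary. A row was called at a Benjamini-Hochberg adjusted p under 0.05 over 23495 rows. CPM are TMM-scaled. Fold changes and SE are the model's. In text and figures, n = 4 refers to retinas. The model was also run on simulated counts, drawn for each gene independently. That run lacks the shared movement of members between retinas and does not bear on their counts of calls. Transcript lengths and coordinates came from GENCODE M21, promoters from RefSeq (GRCm38.p6).

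Members named in each primary comparison were the 5 called per direction with the smallest p, or, with none called, the 3 with the smallest p; in other comparisons 3 and 1. Always named were Rplp0, Rplp1, Rplp2, Rpsa, Rps6, Rpl3, Rpl10, Rpl22, Rpl41, Rps27, Rps27a and 5 paralogues, and the 3 members highest and lowest in mean TPM. Of other lists, called genes with the 3 smallest p were eligible. Others were chosen after their values were seen. Members and lists were chosen with earlier results of these data known.

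Alternatives were RLE factors, DESeq2 1.42.0, no filter, the compared groups alone, limma-trend (limma 3.58.1) on log2(TPM + 1) and log2(TPM + 0.1), the replicate number as a block, covariates for pigment epithelium and lens, Y-linked and mitochondrial RNA, and leaving out each retina. Chosen after seeing the data were a length offset (loess on log10 transcript length, span 0.5), leaving out 5 libraries (4 with a lens mean log2 CPM over 4, and the shallowest) and summing copy rows. R 4.3.3 was used.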

Additional observations from a re-analysis of the deposited data

How the results depend on the processing

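Under every alternative run, the median log2 change of the members kept its sign in OIR against control at both ages and in anti-ANG2 against IgG and bispecific against anti-ANG2 at P19. Smaller medians, between −0.11 and 0.1, crossed 0 under some: those of the other antibody comparisons, except bispecific against anti-VEGFA at P17 (0.12), and that of age in controls. Copy rows, no filter, pigment epithelium and lens covariates and the fit without 5 libraries moved no count of calls by over 1.5 times. Calls moved as follows. For OIR against control at P19 (15 members and 216 of all rows called) the count was 7 with RLE factors (180 of all rows), 28 with DESeq2 (527), 64 with the compared groups alone (761), 46 and 48 with limma-trend on log2(TPM + 1) and log2(TPM + 0.1) (355 and 383), 1 with the Y-linked covariate (110), 67 with the mitochondrial covariate (709) and 6 with the length offset (134); all 15 were among those called by DESeq2, the compared groups alone, both TPM fits and the mitochondrial covariate. At P17 (0 members and 555 of all rows) it was 1 with DESeq2 (1093), with each TPM fit (362 and 269) and with the Y-linked covariate (578), and 10 with the mitochondrial covariate (768). For anti-ANG2 against IgG at P19 (0 members and 23 of all rows) it was 57 with DESeq2 (552), 8 and 9 with the TPM fits (578 and 847) and 2 with the Y-linked covariate (22). For bispecific against anti-ANG2 at P19 (0 and 0) it was 50 with DESeq2 (414) and 1 and 1 with the TPM fits (3 and 37). For P19 against P17 in controls (0 and 23) it was 2 with each TPM fit (126 and 116). Median log2 changes on both TPM scales were 0.1 for OIR at P17, 0.39 for OIR at P19, 0.23 for anti-ANG2 and −0.25 for bispecific against anti-ANG2 at P19. With the mitochondrial covariate they were 0.03 for anti-ANG2, −0.46 for anti-VEGFA against IgG, 0.26 for bispecific against anti-VEGFA and −0.2 for bispecific against anti-ANG2, all at P19. The causes of these moves were not tested. Rises made up 89.4% of all calls in OIR at P19, 74.2% with DESeq2 and 71.5% with the compared groups alone.

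Leaving out each retina gave 0 to 2 called members in OIR at P17, 0 to 44 in OIR at P19, 0 to 50 in anti-ANG2 and 0 to 72 in bispecific against anti-ANG2 at P19. Medians ran from 0.27 to 0.53, 0.55 to 0.8, 0.48 to 0.81 and −0.89 to −0.54. Rps27l at P19 was called under each alternative other than without IgG retina 1 (adjusted p = 0.061, edgeR; 0.000030 to 0.061 over all alternatives). With the replicate number as a block, 1 member, Rpl35, was called in OIR at P17 (adjusted p = 0.047), and 15 at P19. The labels do not say whether a shared number marks a shared mouse or litter. Deviations of same-numbered retinas of different groups correlated at a mean of 0.02 (−0.13 to 0.37, 180 pairs), and 20 of 40 libraries correlated best with their own number. The number to be had without any pairing was not computed, so these values do not settle whether numbers mark pairs. Rpl3l, Rpl10l and Rpl39l, at 0 in 14, 25 and 21 libraries, were too shallow for their changes to be read; what depth limits in the other members was not tested.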
